A study of Caenorhabditis elegans with 4 samples.

Results

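A set of 175 piRNAs of the nematode Caenorhabditis elegans was read with PRG-1 that lacked its PAZ domain and was not read with wild type PRG-1. They were taken from 15913 piRNAs in the deposited table, of which 6251 had at least 1 sense read in any library. A piRNA was a member if it had 0 sense reads in both wild type libraries, 2 or more sense reads summed over both PAZ-deletion libraries, and no more antisense than sense reads over the 4 libraries. The members were thus chosen by their own sense read counts in these 4 libraries, and the contrast between genotypes is given for them as a description, with no test. Adult hermaphrodites of both genotypes, prg-1(∆PAZ-domain) and wild type, were grown at 25 °C and lysed whole, and the V5-tagged PRG-1 protein was immunoprecipitated with its small RNAs. Both genotypes carried the tag, and each had 2 libraries. No untagged precipitate or input RNA was analysed here, and the labels name neither the allele, the strain nor whether replicates came from separate cultures, so spreads between replicates may be technical.

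PRG-1 is the Piwi-clade Argonaute of the C. elegans germline, and piRNAs are the short RNAs it carries. In worms they are called 21U-RNAs, are transcribed from many small genes of their own and guide PRG-1 to transcripts that it recognises by imperfect base pairing, after which other Argonautes and their small RNAs silence the target. The PAZ domain of an Argonaute holds the 3' end of the guide RNA. The files name each piRNA by a piRNAdb identifier only, so no sequence, position or target is given for the members here.

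The PAZ-deletion libraries, replicates 1 and 2, held 20327 and 17197 sense piRNA reads among 7819170 and 14430880 genome-mapped reads. The wild type libraries, replicates 1 and 2, held 142604 and 140121 sense piRNA reads among 6461936 and 8416474 genome-mapped reads. With both libraries of a genotype pooled, wild type thus had 7.53 times as many piRNA reads as PAZ deletion, on 0.669 times as many genome-mapped reads. A wild type count of 0 was reached against 282725 piRNA reads, and a PAZ-deletion count of 0 against 37524. One abundant piRNA that is no member, cel-piR-8767, took 7.05% of the piRNA reads in PAZ-deletion replicate 1 and 51.0% in replicate 2. Values without it stand beside the summed, equal-depth and held-out results it moved. Equal-depth set sizes with 1 library left out were not computed without it. Levels and ratios of single piRNAs within the piRNA reads keep it in the denominator.

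The members were rare RNAs, most of them read a few times in a single PAZ-deletion library. Together they had 502 sense reads, with a median of 2 and a maximum of 26 reads per piRNA. Exactly 2 reads were found for 100 members and 3 reads for 44, which makes 82.3% of the set. Another 15 members had 4 reads, 8 had 5, 6 had 6, 1 had 8 and 1 had 26. Of the 175, 27 (15.4%) were read in both PAZ-deletion libraries, 99 in replicate 1 only and 49 in replicate 2 only. At least 2 reads in each PAZ-deletion library were found for 7 members, and at least 3 reads in each for 2.

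**Figure D1:**
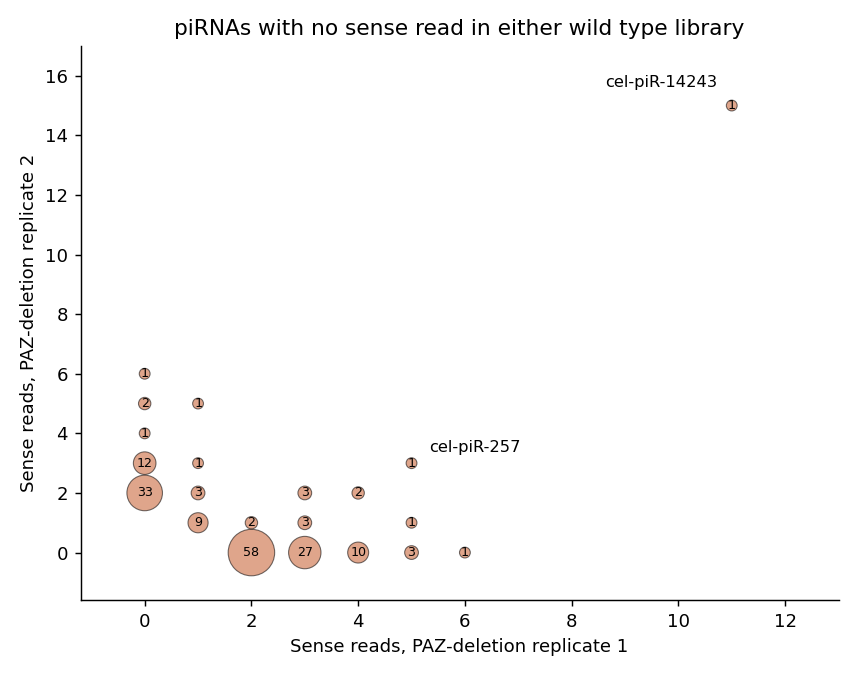
Sense reads of the 175 piRNAs in PAZ-deletion replicate 1 (x axis) and replicate 2 (y axis). Each circle is a combination of counts, with its number of piRNAs written inside and its area growing with that number; most circles lie on an axis, and cel-piR-14243 with 11 and 15 reads stands apart from the rest.

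The member with the most reads was cel-piR-14243. It had 11 and 15 sense reads in PAZ-deletion replicates 1 and 2, against 0 and 0 in wild type replicates 1 and 2. These counts made 1.41 and 1.04 reads per 1000000 genome-mapped reads (RPM) in the PAZ-deletion libraries, and 541 and 872 reads per 1000000 piRNA reads. Both PAZ-deletion libraries held it, so its reads did not rest on a single library, and it had 0 antisense reads in all 4 libraries. The levels within the piRNA reads are not directly comparable between the replicates, as cel-piR-8767 took a larger share of replicate 2. A count of 0 allows up to 3 reads, here over both wild type libraries, which is 0.202 RPM or 10.6 per 1000000 piRNA reads. The pooled PAZ-deletion level was 5.80 times that limit per genome-mapped read and 65.3 times it within the piRNA reads. With the counting error of the 26 reads included, the 95% exact interval of the ratio of PAZ deletion to wild type began at 4.39 per genome-mapped read and at 49.4 within the piRNA reads. That interval uses the counts by which the member was chosen and does not allow for the choice, so it is a description and no test. This member alone held 5.18% of the set's reads.

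The next member, cel-piR-257, had 5 and 3 sense reads in PAZ-deletion replicates 1 and 2 and 0 and 0 in wild type. Its pooled level was 0.360 RPM, which is 1.78 times the wild type limit per genome-mapped read, and it was 20.1 times that limit within the piRNA reads. The 95% exact interval of the ratio began at 1.14 and 12.9 on these scales, again without allowance for the choice by the same counts. A sum of 8 reads has a 95% exact Poisson interval of 3.45 to 15.8 reads, an interval for counting error alone, as PCR copies of a molecule are counted as separate reads.

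Below these, 6 members had 6 reads and 8 had 5. Reads in both PAZ-deletion libraries were found for 4 of the members with 6 reads. cel-piR-332 and cel-piR-15137 each had 4 and 2 reads in PAZ-deletion replicates 1 and 2, cel-piR-8178 had 5 and 1, and cel-piR-15382 had 1 and 5. The other members with 6 reads were each read in a single library, cel-piR-2957 in replicate 1 and cel-piR-8929 in replicate 2. Among the members with 5 reads, cel-piR-14, cel-piR-767 and cel-piR-1878 each had 3 and 2 reads in PAZ-deletion replicates 1 and 2. The members cel-piR-12368 and cel-piR-14606 had all 5 reads in replicate 1, and so had cel-piR-5310, which ties with them in reads and is named here after its values were seen. The members cel-piR-11117 and cel-piR-13686 had all 5 in replicate 2. Of the 16 members with 5 or more reads, 9 were thus read in both PAZ-deletion libraries, 4 in replicate 1 only and 3 in replicate 2 only. Of the 15 members with 4 reads, 4 were read in both PAZ-deletion libraries. Among these, cel-piR-14795 had 3 and 1 reads in replicates 1 and 2 and was named by the order of identifiers. It ties with cel-piR-1490 and cel-piR-6810, which had 3 and 1, and with cel-piR-15007, which had 1 and 3.

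How far the absence from wild type reaches depends on the scale. Per genome-mapped read, a member with 2 PAZ-deletion reads stood at 0.0899 RPM, below the wild type limit of 0.202 RPM, so for such a member no difference between genotypes was detectable at this depth. Only the 16 members with 5 or more reads (9.14% of the set) lay above that limit. The lower end of the 95% exact interval of the ratio, computed from the reads pooled by genotype, exceeded 1 for 2 of the 175, cel-piR-14243 and cel-piR-257. It was 0.613 for members with 5 reads and 0.787 for those with 6, although these lay above the limit. All these intervals use the counts by which the members were chosen, so they are no test of a difference. Within the piRNA reads, 2 PAZ-deletion reads corresponded to 53.3 per 1000000, above the wild type limit of 10.6. The rule asks for at least 2 such reads, so all 175 members lay above that limit by their choice. For the members with 2 to 6 reads, the interval per genome-mapped read began below 1. Their membership thus describes a share of the piRNA reads, with no difference shown per genome-mapped read. For cel-piR-14243 and cel-piR-257 it began above 1, which is no test of a difference either, as the same counts chose them.

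Just outside the set, 262 piRNAs had a single PAZ-deletion read and 0 wild type reads, 153 of them read in replicate 1 and 109 in replicate 2. Another 104 piRNAs had 2 or more PAZ-deletion reads and a single wild type read. Of these, 4 with the most PAZ-deletion reads had 7 to 11 reads there. cel-piR-3985 had 8 and 3 reads in PAZ-deletion replicates 1 and 2 and 1 and 0 in wild type replicates 1 and 2. cel-piR-15205 had 0 and 9 reads with PAZ deletion and 1 and 0 in wild type. cel-piR-14354 had 6 and 1 reads with PAZ deletion and 1 and 0 in wild type, and cel-piR-1557 had 1 and 6 with PAZ deletion and 0 and 1 in wild type. Within the piRNA reads the pooled ratio of PAZ deletion to wild type was 82.9 for cel-piR-3985, with a 95% exact counting interval of 12.0 to 3567. Both values use the counts by which it was picked, so a high ratio was built in. The condition on antisense reads removed 0 piRNAs.

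Summed over the set, the members took 1.59% and 1.04% of all piRNA reads in PAZ-deletion replicates 1 and 2, a mean of 1.31% ± 0.388 (SD, n = 2), and 0% in wild type by the choice of members. Per genome-mapped read they stood at 41.3 and 12.4 RPM in PAZ-deletion replicates 1 and 2, or 26.9 ± 20.4 RPM (SD, n = 2). Replicate 1 exceeded replicate 2 by 3.33-fold for the members and by 2.18-fold for all piRNA reads. The sense strand of a 1 Mb bin that holds ribosomal RNA genes had the most reads of any bin and strand. Its share of genome-mapped reads was 29.6% and 61.2% in PAZ-deletion replicates 1 and 2. In wild type replicates 1 and 2 it was 63.2% and 67.1%. With all reads but those of that strand of the bin as the denominator, the members stood at 58.7 and 31.9 per 1000000. These values, for PAZ-deletion replicates 1 and 2, are 1.84-fold apart. Without cel-piR-8767 in the denominator, the members' share of piRNA reads was 1.71% and 2.12% in replicates 1 and 2, so the order of the replicates turned.

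Antisense reads, which the rule limits, were few among the members, as they were over all piRNAs. In PAZ-deletion replicates 1 and 2 the members had 6 and 0 antisense reads beside 323 and 179 sense reads. Over all piRNAs there were 308 and 445 antisense reads beside 20327 and 17197 sense reads. In all, 4 members had 7 antisense reads. The members cel-piR-9020, cel-piR-6667 and cel-piR-10459 each had 2 antisense reads in PAZ-deletion replicate 1, where they had 0 sense reads, and their sense reads (3, 2 and 2) lay in replicate 2. The fourth, cel-piR-4993, had 2 sense reads in PAZ-deletion replicate 2 and 1 antisense read in wild type replicate 1. That antisense read was the set's only read in wild type.

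The share of piRNAs that went unread in wild type was smaller at higher PAZ-deletion counts. Of the 2309 piRNAs with 2 or more PAZ-deletion reads, 175 (7.58%) had no wild type read. Wild type reads were missing for 26.7% of the 982 piRNAs with 1 PAZ-deletion read, 17.5% of 573 with 2, 12.6% of 348 with 3, 6.70% of 224 with 4 and 2.87% of 522 with 5 to 9. Of 353 piRNAs with 10 to 19 PAZ-deletion reads, 0 were unread in wild type, and of 289 with 20 or more, 1 was, which was cel-piR-14243. The median wild type count, pooled over both libraries, was 6 reads for piRNAs with 2 PAZ-deletion reads and 203 reads for those with 20 or more.

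The split of reads between the PAZ-deletion libraries was not used by the rule, which summed them. It was compared between members and piRNAs of the same sum that were also read in wild type. Among piRNAs with 2 PAZ-deletion reads, 9 of 100 members (9%) were read in both libraries, against 109 of 473 others (23.0%). With 3 reads the shares were 5 of 44 members (11.4%) and 114 of 304 others (37.5%). With 4 reads they were 4 of 15 members (26.7%) and 97 of 209 others (46.4%). With 5 reads they were 3 of 8 members (37.5%) and 102 of 161 others (63.4%), and with 6 reads 4 of 6 members (66.7%) and 85 of 121 others (70.2%). The member with 8 reads was read in both, as were 59 of 72 others (81.9%). No test was run on these shares, because piRNAs of the same libraries are not replicates.

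**Figure D2:**
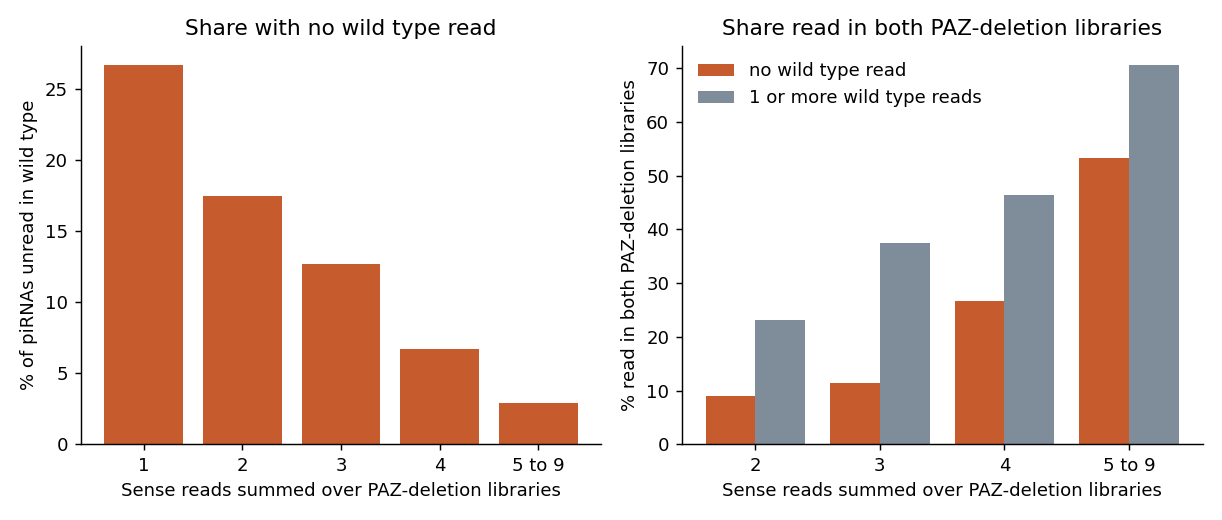
Left, percentage of piRNAs with no wild type sense read (y axis) by sense reads summed over the PAZ-deletion libraries (x axis), falling from 26.7% at 1 read to 2.87% at 5 to 9 reads. Right, percentage read in both PAZ-deletion libraries for piRNAs without wild type reads (orange) and with them (grey), where the orange bar is the lower one in each class shown; in the class of 5 to 9 reads, 53.3% against 70.6%, the members had mostly 5 or 6 reads.

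The mirror set, piRNAs with 0 PAZ-deletion reads and 2 or more wild type reads under the same antisense condition, had 1998 members against the 175 at the deposited depth. It drew on 4647 piRNAs with 2 or more wild type reads, of which 2007 (43.2%) were unread with PAZ deletion, 9 of them with more antisense than sense reads. The mirror set reached higher counts, with a median of 4 and a maximum of 355 wild type reads, and 61.7% of it was read in both wild type libraries. Its leading member, cel-piR-4749, had 0 and 0 reads in PAZ-deletion replicates 1 and 2, against 141 and 214 in wild type replicates 1 and 2. For cel-piR-7472 the reads were 0 and 0 with PAZ deletion and 28 and 207 in wild type, and for cel-piR-15490 they were 0 and 0 with PAZ deletion and 129 and 55 in wild type. The counts of cel-piR-2028 were 0 and 0 with PAZ deletion and 75 and 85 in wild type, and those of cel-piR-11155 were 0 and 0 with PAZ deletion and 87 and 52 in wild type. The other leading mirror piRNAs, cel-piR-1692, cel-piR-15560 and cel-piR-9084, had 135, 123 and 122 wild type reads in sum.

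At equal piRNA depth the sets were closer in size than the 175 and 1998 at the deposited depth. Each library was thinned to the 17197 piRNA reads of the shallowest, and the expected set sizes were computed exactly from the hypergeometric distribution, without random draws. The set read only with PAZ deletion then had an expected 551 piRNAs and the mirror set 442, a mirror set 0.803 times as large. At most 175 of the 551 can be members. The others had wild type reads at the deposited depth, which thinning removed. With a minimum of 1 read the expected sizes were 1126 for PAZ deletion and 1135 for wild type, and with a minimum of 5 reads 98.3 and 94.2. With a minimum of 10 reads they were 16.2 for PAZ deletion and 22.0 for wild type. With cel-piR-8767 kept, the order of the sizes depended on the PAZ-deletion library used. At 17197 reads per genotype without PAZ-deletion replicate 1, 304 piRNAs were expected only with PAZ deletion and 502 only in wild type. Without PAZ-deletion replicate 2 they were 503 and 324. As cel-piR-8767 took 7.05% of the piRNA reads in replicate 1 and 51.0% in replicate 2, unequal depth was left for other piRNAs. Such sizes with 1 library left out were not computed without cel-piR-8767. With all 4 libraries and without cel-piR-8767, thinned to the 8435 reads that remained in PAZ-deletion replicate 2, 551 were expected for PAZ deletion and 282 for wild type. At that depth with cel-piR-8767 kept they were 383 and 336. At equal genome-mapped depth, where the lower piRNA content of the PAZ-deletion libraries remains, 119 piRNAs were expected only with PAZ deletion and 2140 only in wild type.

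**Figure D3:**
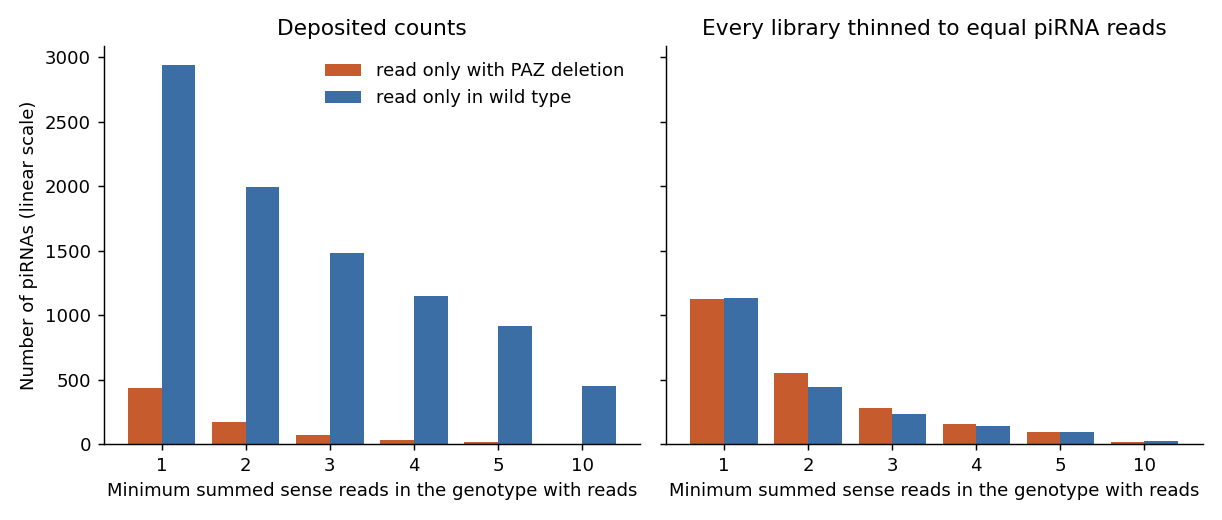
Number of piRNAs (y axis, linear) read only with PAZ deletion (orange) and only in wild type (blue), by the minimum of summed sense reads asked for (x axis). The left panel uses the deposited counts, 175 against 1998 at a minimum of 2; the right panel gives expected numbers with every library thinned to 17197 piRNA reads, 551 against 442.

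The sets at equal depth differed in how often both libraries of the genotype held the piRNA. Most piRNAs of the PAZ-deletion set at that depth were not among the 175 members. At 17197 reads per library, 32.2% of the piRNAs expected only with PAZ deletion were read in both PAZ-deletion libraries, against 61.1% of the mirror set in both wild type libraries. The remainder comprised 247 and 127 piRNAs read in PAZ-deletion replicate 1 or 2 alone, and 93.0 and 78.8 read in wild type replicate 1 or 2 alone. The number of different piRNAs at this depth was 2541 and 1927 in PAZ-deletion replicates 1 and 2, against 2492 and 2301 in wild type replicates 1 and 2. Without cel-piR-8767, at 8435 reads per library, it was 1997 and 1926 in PAZ-deletion replicates 1 and 2, against 1848 and 1710 in wild type, so the gap between the PAZ-deletion replicates was mostly gone. The share read in both libraries was then 38.5% of the piRNAs expected only with PAZ deletion and 60.2% of the mirror set, against 37.4% and 62.0% at that depth with cel-piR-8767 kept. Its removal also turned the order of the PAZ-deletion replicates, with 150 and 189 piRNAs read in replicate 1 or 2 alone, against 166 and 74.2 at that depth with it kept.

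To set the choice apart from its measurement, piRNAs were chosen in 1 library of each genotype and looked up in the other library of each, at 17197 piRNA reads and in each of the 4 ways. The choice asked for 2 or more reads in a PAZ-deletion library and 0 in a wild type library, and the mirror choice for the reverse. The chosen piRNAs need not be members, since wild type reads in the held-out library or lost in thinning did not exclude them. With PAZ-deletion replicate 1 used for choosing, 34.2% and 36.2% of the chosen piRNAs had a read in the held-out PAZ-deletion replicate 2, and 30.4% and 36.2% had one in the held-out wild type library (choosing with wild type replicate 1 and 2). With PAZ-deletion replicate 2 used for choosing, 47.1% and 50.2% were read in the held-out PAZ-deletion replicate 1, and 28.8% and 36.1% in the held-out wild type library. The mean excess of the PAZ-deletion library over the wild type library was 9.03 percentage points, with a range of -0.01 to 18.3 over the 4 ways. In the mirror choice the excess lay on the wild type side in all 4 ways, with 33.0% to 56.3% read in the held-out PAZ-deletion library and 64.6% to 73.7% in the held-out wild type library. Neither held-out library held a read for 44.1% of the piRNAs chosen for PAZ deletion, on average, and for 21.5% of those chosen for wild type. The 4 ways share the same 4 libraries, so these shares are a description and carry no test.

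**Figure D4:**
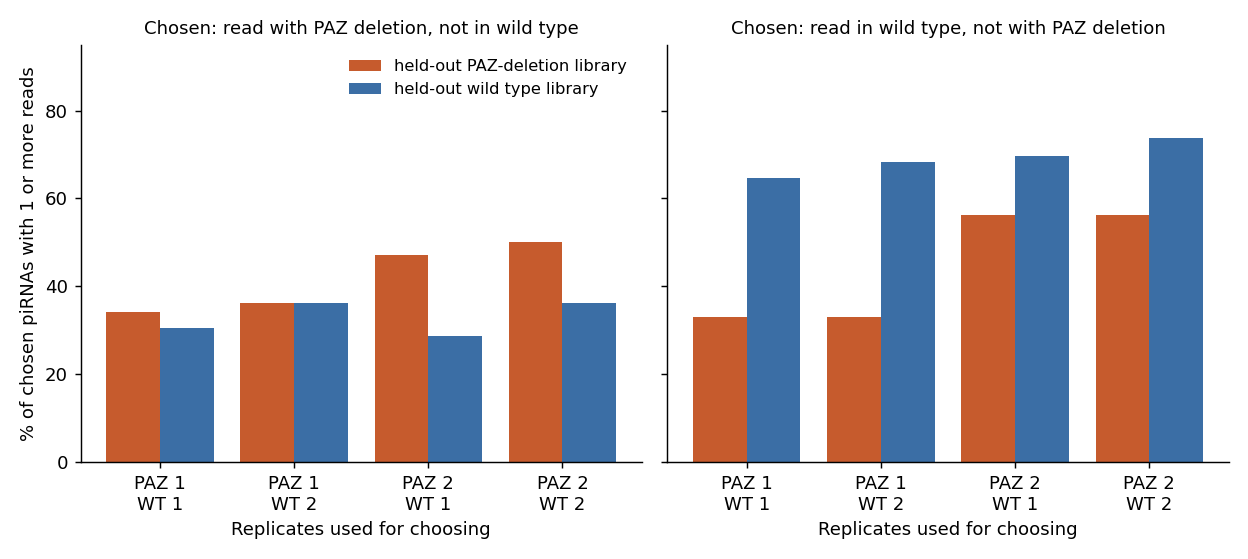
Percentage of chosen piRNAs with 1 or more reads (y axis) in the held-out PAZ-deletion library (orange) and the held-out wild type library (blue), for each pair of replicates used for choosing (x axis), at 17197 piRNA reads per library. On the left, for piRNAs chosen as read with PAZ deletion, the bars are close when PAZ-deletion replicate 1 was used for choosing; on the right, for the mirror choice, the blue bar is higher in each pair.

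The held-out shares moved with cel-piR-8767 and with depth. Without cel-piR-8767, at 8435 reads per library, 44.5% to 50.2% of the piRNAs chosen for PAZ deletion were read in the held-out PAZ-deletion library and 26.7% to 36.3% in the held-out wild type library, an excess of 14.0 to 17.9 percentage points. At that depth with cel-piR-8767 kept, the excess ranged from 2.28 to 20.5. On the deposited counts, where the held-out wild type library was the deeper one, the excess was negative in all 4 ways, from -32.3 to -5.62 percentage points. For example, of the 178 piRNAs with 2 or more reads in PAZ-deletion replicate 1 and 0 in wild type replicate 1, 14.0% were read in PAZ-deletion replicate 2 and 37.1% in wild type replicate 2.

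Fits across the whole table reached few of the members, and since the rule used the contrast they fit, no p is given for any member. With library sizes from piRNA reads and TMM scaling, 1172 piRNAs passed the filter on low counts and 96 of them (8.19%) were higher with PAZ deletion (edgeR quasi-likelihood test, Benjamini-Hochberg adjusted p under 0.05). Only 1 of the 175 members, cel-piR-14243, passed that filter, through its PAZ-deletion reads alone. With library sizes from genome-mapped reads and no further scaling, 0 of 1355 tested piRNAs were higher with PAZ deletion (0%) and 1042 were lower. The count of higher piRNAs was also 0 at an unadjusted p under 0.05 and 0 by DESeq2 with those library sizes. With TMM or median-of-ratios factors added, which set the bulk of the piRNAs as the baseline, 69 and 68 of the 1355 were higher. The median log2 fold change over the tested piRNAs was -4.03 without such factors, and -0.49 and -0.53 with them. In the fit per genome-mapped read, 0 of the 175 members passed the filter.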

How the data were processed

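Small RNAs co-precipitated with V5-tagged PRG-1 were sequenced in 4 libraries, and groups were taken from the sample titles. Raw read counts for each piRNA, sense and antisense, were deposited by the authors, against piRNAdb version 1.7.6, and raw counts per 1 Mb bin and strand of ce11, per the file headers. Which aligner, trimming and length limits were used, and how multiply matching reads were counted, is not given in the sources used here. Reads that match several near-identical piRNAs could be split or repeated among them, so single rare piRNAs are uncertain. The row of totals was dropped, and genome-mapped reads were the sums over bins. The authors' summary sheet was not used.

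The members, lists and comparisons were chosen with earlier results of these data known. Named were the 15 members with the most PAZ-deletion reads, the 10 with the largest minimum over both libraries, 8 mirror piRNAs and 4 piRNAs with a single wild type read. Expected set sizes after thinning were exact hypergeometric values, with the antisense condition taken from the deposited counts. A count of 0 was taken to allow 3 reads. Intervals are at 95% and cover counting error only, not the choice of piRNAs by the same counts. Tests were edgeR 4.0.16 quasi-likelihood fits (R 4.3.3; filterByExpr, minimum count 10, minimum total 15; threshold 0.05), with DESeq2 1.42.0 as an alternative. Thinning and fits were tested on simulated data. Other steps used SciPy 1.17.1, pandas 2.3.3, NumPy 2.4.6 and matplotlib 3.10.9 in Python 3.11.15.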

Additional observations from a re-analysis of the deposited data

How the results depend on the processing

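The set had 435, 75, 16 and 1 piRNAs with a minimum of 1, 3, 5 and 10 PAZ-deletion reads, 279 with 1 wild type read allowed, and 61 to 355 when 1 library was left out, with 112 and 61 without PAZ-deletion replicates 2 and 1 and 275 and 355 without wild type replicates 2 and 1. At matched piRNA depth the set read only with PAZ deletion had an expected 1126, 282, 98.3 and 16.2 piRNAs at these minimums and the mirror set 1135, 231, 94.2 and 22.0. With 1 read allowed in the other genotype they had 840 and 689, and at equal genome-mapped depth 119 and 2140. With 1 library left out and cel-piR-8767 kept they had 304 to 503 and 324 to 502. Without cel-piR-8767 and at 8435 reads per library, an alternative chosen after seeing the data, the mirror set had 282, and 336 at that depth with cel-piR-8767 kept, so much of the change from 442 came with the lower depth. The antisense condition moved these sizes by less than 1.5-fold.

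The mean held-out excess of PAZ deletion over wild type, 9.03 percentage points, was 18.9 with a minimum of 5 reads. It reversed to -21.1 on the deposited counts and to -23.3 at equal genome-mapped depth. In both settings the wild type libraries held more piRNA reads. Per genome-mapped read these stood at 22068 and 16648 RPM in wild type replicates 1 and 2. In PAZ-deletion replicates 1 and 2 they stood at 2600 and 1192 RPM. The excess could not be computed with a library left out, since it needs all 4.

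The summed level of 26.9 RPM was 5.57 and 1.22 with a minimum of 5 and 10 reads, 11.4 to 59.4 with 1 library left out, and 13149 per 1000000 piRNA reads, or 19158 of those without cel-piR-8767. The fits restate the rule for members, so no call is given for any of them. Over all tested piRNAs, 96 of 1172 were higher with PAZ deletion within the piRNA reads, and 32 of 6251 without a filter. Per genome-mapped read 0 of 1355 were higher, and 1 of 6251 without a filter. With other scalings, DESeq2 or the replicate number as a block, the fit within the piRNA reads held 1 member, cel-piR-14243. The fit per genome-mapped read held 0, so these fits say nothing about the stability of the members. The labels do not say that the numbers pair libraries, and the differences between replicates 1 and 2 correlated at -0.012 between genotypes over 1172 piRNAs. Over all piRNAs the block left 54 higher and 123 lower within the piRNA reads, against 96 and 186 without it. Depth limits most members: a sum of 2 to 4 reads cannot show a difference per genome-mapped read.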
